A study of Homo sapiens with 6 samples.

Results

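The genes described here are 52 nucleolar ribosome biogenesis factors, proteins that make, modify and cut ribosomal RNA and fold it into ribosomal subunits. They were chosen by symbol and matched through Ensembl identifiers to the deposited tables, where all 52 had a row among 22718 genes and all 52 passed the filter on low counts. Levels came from RNA sequencing of 6 libraries labelled HT1197, an established line that the labels describe as bladder carcinoma. Vehicle libraries A, B and C came from cells in 1% DMSO and panobinostat libraries A, B and C from cells in that drug at 2 times the line's IC50, both for 48 hours. Panobinostat is an inhibitor of histone deacetylases, and the comparison asks how transcript levels differed after it. All libraries are of this 1 line, and the dishes are described as seeded in triplicate without a tie from library to dish, so the p-values reflect a spread that could be purely technical.

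Ribosomes are built in the nucleolus. RNA polymerase I copies the ribosomal DNA into a long precursor, small nucleolar ribonucleoproteins (snoRNPs) guide its methylation and pseudouridylation, and assembly factors act with helicases and nucleases to process it into the RNAs of the small and the large subunit. Genes of this pathway are well known as targets of the MYC family of transcription factors, which bind the palindrome CACGTG called the E-box, and dividing cells depend on them for growth.

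Library totals lay between 13417898 and 18186087 counts. In each library the 52 genes had between 70 and 20984 counts, so none of their levels rests on a handful of reads. The labelled cell type was checked with 18 urothelial markers, of which 10 had a row and 2 reached a mean of 1 FPKM (the authors' counts scaled by gene length and library size) in vehicle. Of these, 1 reached a mean of 10 FPKM and made up most of the sum in vehicle. The summed level of the urothelial markers was 11.02 to 15.3 FPKM in vehicle and 11.7 to 15.5 FPKM with panobinostat. Among the markers below 1 FPKM, KRT7, a keratin of urothelium, had a mean of 0.0794 FPKM in vehicle, and UPK1B, FOXA1 and TP63 had a count of 0 in each vehicle library. Markers of sympathetic neuroblasts summed to 1654 to 1865 FPKM in vehicle and 1394 to 1479 FPKM with panobinostat. Of these 10 markers 9 reached a mean of 10 FPKM in vehicle, with PHOX2A, a noradrenergic transcription factor, at 139 FPKM. MYCN, whose level is given below, is 1 of the 10 and made up a large part of the sum and of its fall. The markers thus go against the labelled bladder carcinoma, and whether the label or the line is in error was not tested. The libraries are called by their label without the cell type being taken as given. Summed levels with vehicle and with panobinostat were 10.8 to 13.5 and 57.5 to 60.1 FPKM for fibroblast markers, 0.570 to 1.09 and 0.337 to 0.699 FPKM for leukocyte markers, and 0.105 to 0.154 and 0.554 to 0.564 FPKM for endothelial markers. Their part in the results was not tested.

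Transcripts of the nucleolar factors were mostly lower after panobinostat. Of the 52 genes, 44 fell and 1, FBL, rose at a Benjamini-Hochberg adjusted p of 0.05 in edgeR's quasi-likelihood test across 16084 genes, and 7 did not pass (NOLC1, NOP56, RRP12, NOC2L, RRS1, DDX21 and NPM1). Over all genes tested 31.5% fell and 33.7% rose. Among the 10074 genes within the same range of mean level, 9.06 to 847 CPM (counts scaled to library size and between libraries by TMM, the trimmed mean of M values), 42% fell and 27.2% rose, against 84.6% and 1.92% of the nucleolar factors. Their median log2 fold change, panobinostat minus vehicle, was -0.52, where that of all genes tested was 0.01 and that of genes in the same range -0.12. With upper quartile scaling, which moved the median of all genes by 0.14 on the log2 scale and had 3827 genes fall and 6570 rise in place of 5066 and 5416, 38 of the 52 fell and 2 rose.

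Most of these changes were modest in size. Only UTP20 and DDX52 fell 2-fold or more, as did 5.27% of all genes tested, while 20 of the 52 fell 1.5-fold or more, as did 15.1% of all genes tested. The SE of the log2 fold change ran from 0.07 to 0.17, with a median of 0.08. In 43 genes every panobinostat library lay below every vehicle library, and in FBL every one lay above, against 33.4% and 35.5% of all genes tested. Between them the 52 genes took 0.838%, 0.898% and 0.917% of the counts in vehicle libraries A, B and C and 0.717%, 0.692% and 0.710% in panobinostat libraries A, B and C. Without NCL, the gene with the most counts, the arms held 0.778% ± 0.029 and 0.645% ± 0.004 (SD, n = 3). Markers of proliferation, 9 of 15 of which fell and 2 rose, summed to 1424 to 1561 FPKM in vehicle and 1197 to 1338 FPKM with panobinostat, and their part in these values was not tested. In RNA from many cells, fewer cells of a kind and less RNA per cell cannot be told apart.

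**Figure D1:**
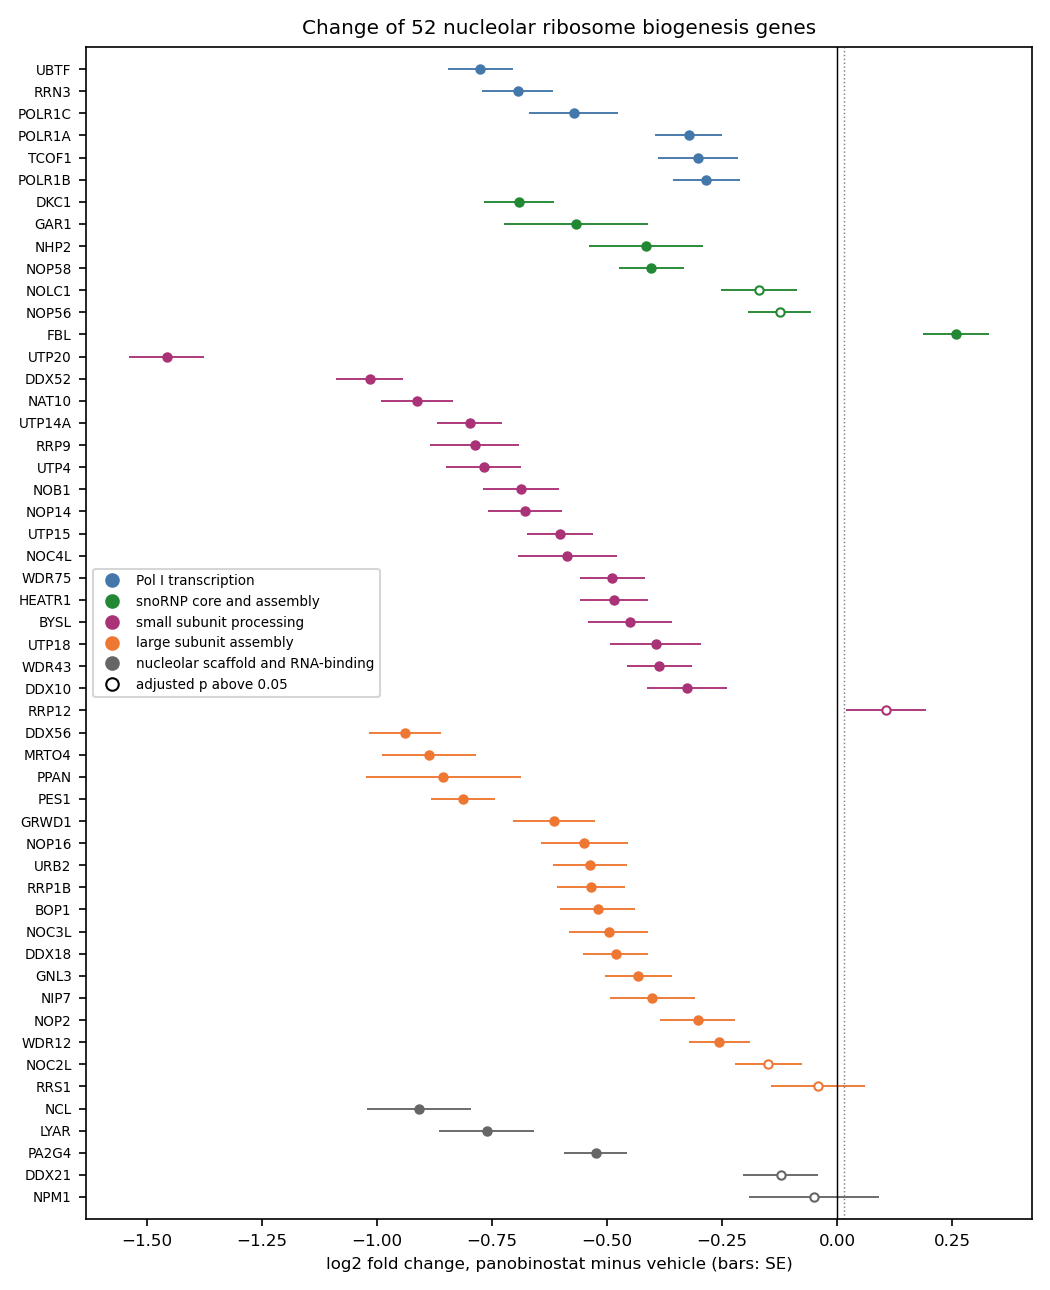
Log2 fold change (panobinostat minus vehicle, horizontal axis) with its SE for each of the 52 genes, grouped and coloured by role, with open symbols for an adjusted p above 0.05. The dotted line is the median of all genes tested, 0.01. Of the 52 symbols 50 lie left of 0, UTP20 lies farthest left at -1.46, and FBL and RRP12 lie to the right.

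The starts of these genes were searched for motifs. The genes were chosen by symbol and not by sequence, but their pathway is well known for MYC family targets, so many E-boxes could be foreseen. RefSeq promoter windows (GRCh38.p14, 250 bases before to 50 after an annotated start) matched 42 of the 52 genes. The E-box CACGTG, which reads the same on both strands, was found in 18 of the 42 (42.9%), against 8.77% of 27305 genes with a window and 12.5% of the 11398 of them that were tested. A motif of ETS factors, CCGGAAGT on either strand, was found in 11 of 42 (26.2%) against 9.55% of genes tested, the NRF1 motif GCGCATGC, part of that factor's site, in 4 of 42 (9.52%) against 6.23%, and the TATA sequence TATAAA in 1 of 42 (2.38%), UTP20, against 9.05%. The letters of these 4 motifs do not contain each other. A gene with several windows was counted if any of them held the motif, and the genes compared were not matched in level or in number of windows. Of the 19 E-boxes in the 18 genes, 11 (57.9%) began within the 50 bases after the start and 16 (84.2%) within 50 bases of it on either side, against 163 (9.99%) and 641 (39.3%) of 1631 E-boxes in genes tested. The count by position was added after the matches had been seen. The following windows of 30 bases, 5′ to 3′ on the gene's strand, show the E-box in capitals in genes named in the results, with those of the genes that fell most first, then FBL, the gene that rose, and DDX21, which did not pass.
UTP20: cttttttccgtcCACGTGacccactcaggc
NAT10: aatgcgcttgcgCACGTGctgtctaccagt
MRTO4: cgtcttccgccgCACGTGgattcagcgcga
PES1: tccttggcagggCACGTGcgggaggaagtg
UTP14A: accttgggcCACGTGgaaaccaggggccag
RRP9: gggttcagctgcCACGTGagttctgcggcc
UTP4: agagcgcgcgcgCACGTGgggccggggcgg
LYAR: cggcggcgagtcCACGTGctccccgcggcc
FBL: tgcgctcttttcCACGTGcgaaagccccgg
DDX21: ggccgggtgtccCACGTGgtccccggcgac

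These windows lie at chr12:101280083-101280112 (UTP20), chr11:34105602-34105631 (NAT10), chr1:19251807-19251836 (MRTO4), chr22:30591880-30591909 (PES1), chrX:129905914-129905943 (UTP14A), chr3:51941892-51941921 (RRP9), chr16:69132621-69132650 (UTP4), chr4:4290068-4290097 (LYAR), chr19:39846356-39846385 (FBL) and chr10:68956604-68956633 (DDX21), with MRTO4, NAT10, UTP20, UTP14A, UTP4 and DDX21 on the plus strand and the rest on the minus strand. Counted from the window's RefSeq start, where 1 is its first base, the E-box began at base 7 in FBL, 14 in PES1 and 15 in MRTO4. It began before the start by 5 bases in RRP9, 10 in UTP20, 15 in NAT10, 16 in UTP4, 31 in DDX21, 64 in LYAR and 241 in UTP14A. A gene can have several such starts: that used for PES1 lies inside the gene's span given below, and LYAR and DDX21 each have another window without an E-box. The same letters stand near the start of the gene that rose and of genes that fell. Of the 18 genes with an E-box 16 fell, with a median log2 fold change of -0.62, and of the 24 matched genes without one 21 fell, with a median of -0.54. Of the 1423 genes tested with an E-box in the window 580 (40.8%) fell, against 3386 (33.9%) of the 9975 with a window and no E-box and 42% of genes in the 52 genes' range of level. These shares were added after the values had been seen and were not tested against each other. A match of letters describes the window and not a bound site.

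The whole stretch before the start of UTP20, the gene that fell most, is printed because it holds both the E-box, in capitals, and the TATA letters on the opposite strand. It covers chr12:101279855-101280104 on the plus strand, and 47.6% of its bases are G or C. The TATA letters lie much farther from the start than the E-box. Only exact letters were counted, so a near match such as tatataag close to a start of NPM1 was not.
UTP20: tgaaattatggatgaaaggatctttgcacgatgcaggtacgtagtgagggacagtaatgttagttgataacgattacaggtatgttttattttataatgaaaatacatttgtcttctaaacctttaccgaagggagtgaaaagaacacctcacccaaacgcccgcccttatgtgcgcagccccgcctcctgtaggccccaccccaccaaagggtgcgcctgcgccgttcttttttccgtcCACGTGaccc

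MYCN, the MYC family member with the highest level, fell from 832 FPKM to 579 FPKM, by 0.64 on the log2 scale (SE 0.08, adjusted p = 4e-06). MYC itself stood at 0.249 FPKM and rose to 0.534 FPKM, MYCL rose from 0.641 to 3.06 FPKM, and MAX, their shared partner, rose from 13.7 to 19.6 FPKM. Any relation between these levels and the E-box genes was not tested.

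All 6 genes of RNA polymerase I transcription fell, with a median log2 fold change of -0.45. UBTF, the factor that binds ribosomal DNA along the promoter and the transcribed genes (ENSG00000108312, chr17:44205033-44221626, minus strand), was at 338, 322 and 333 CPM in vehicle libraries A, B and C and at 198, 182 and 201 CPM in panobinostat libraries A, B and C. It fell 1.71-fold (log2 fold change -0.78, SE 0.07, adjusted p = 2.16e-07). The libraries of an arm lay close together and the arms were far apart. RRN3, which brings the polymerase to the promoter, was at 128, 149 and 146 CPM in vehicle libraries A, B and C and at 86.0, 84.1 and 91.2 CPM in panobinostat libraries A, B and C, a log2 fold change of -0.69 (SE 0.08, adjusted p = 1.78e-06). POLR1C, a subunit shared with RNA polymerase III, was at 35.0, 32.6 and 31.8 CPM in vehicle libraries A, B and C and at 19.7, 23.8 and 23.0 CPM in panobinostat libraries A, B and C, a log2 fold change of -0.57 (SE 0.10, adjusted p = 9.92e-05). The fitted falls of UBTF and RRN3 were larger than those of the catalytic subunits, a difference that was not tested. POLR1A, the largest subunit, was at 136, 129 and 138 CPM in vehicle libraries A, B and C and at 109.8, 113 and 99.7 CPM in panobinostat libraries A, B and C, a log2 fold change of -0.32 (SE 0.07, adjusted p = 0.00122). POLR1B, the other subunit of the catalytic centre, fell by 0.29 and TCOF1, the treacle protein that binds UBTF and the polymerase, by 0.30 on the log2 scale. The call of POLR1B was lost with upper quartile scaling (log2 fold change -0.15, adjusted p = 0.0889), and that of POLR1A with limma on log2(FPKM + 1) without a filter (adjusted p = 0.0516). The arms of TCOF1 overlapped, and its call was lost with library size alone (adjusted p = 0.0757) and with upper quartile scaling (adjusted p = 0.112).

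**Figure D2:**
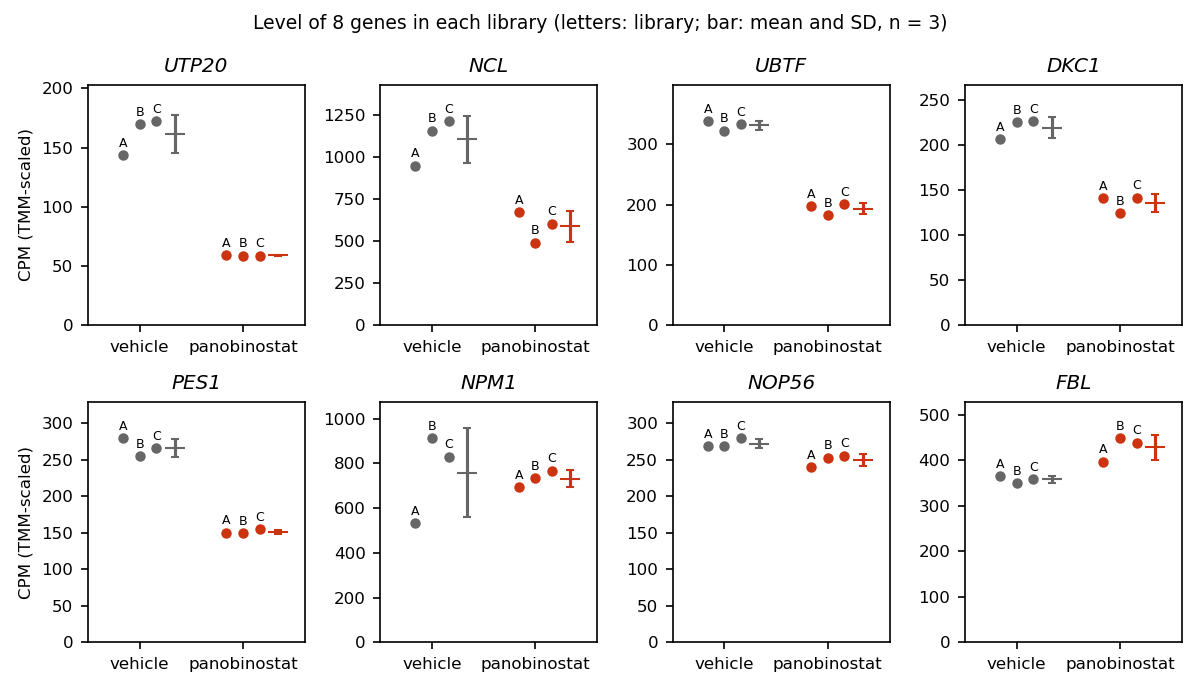
Level in CPM (vertical axis, from 0) of 8 genes in each vehicle (grey) and panobinostat (red) library, with the library's letter and the mean and SD of each arm (n = 3). The arms of UTP20, NCL, UBTF, DKC1 and PES1 are apart with panobinostat lower, FBL is apart with panobinostat higher, and vehicle library A of NPM1 lies at 533 CPM, below the other libraries.

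The core proteins of the snoRNPs did not move together. Of the 7 genes 4 fell, 1 rose and 2 did not pass, with a median log2 fold change of -0.40. FBL, fibrillarin, the methyltransferase of the box C/D particles (ENSG00000105202, chr19:39834458-39846414, minus strand), was at 365, 350.3 and 359 CPM in vehicle libraries A, B and C and at 398, 448 and 439 CPM in panobinostat libraries A, B and C. It rose 1.20-fold (log2 fold change 0.26, SE 0.07, adjusted p = 0.00575), and the lowest panobinostat library exceeded the highest vehicle library. NOP58, a core protein of the same particles, was at 206, 232 and 211 CPM in vehicle libraries A, B and C and at 164, 160.4 and 166 CPM in panobinostat libraries A, B and C, a log2 fold change of -0.40 (SE 0.07, adjusted p = 0.000156). Its close relative NOP56 was at 269, 269 and 279 CPM in vehicle libraries A, B and C and at 240.2, 253 and 256 CPM in panobinostat libraries A, B and C. The NOP56 arms did not overlap, but the difference was small (log2 fold change -0.13, SE 0.07) and did not pass (adjusted p = 0.117). Within the C/D core, then, 1 gene rose, 1 did not pass and 1 fell.

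The 3 genes of the box H/ACA core among the 52 all fell. NOP10, a further protein of this core that is not among the 52, did not pass (log2 fold change -0.12, adjusted p = 0.154). DKC1, dyskerin, the pseudouridine synthase (ENSG00000130826, chrX:154762742-154777689, plus strand), was at 206, 225 and 226 CPM in vehicle libraries A, B and C and at 141, 124 and 142 CPM in panobinostat libraries A, B and C, a fall of 1.62-fold (log2 fold change -0.69, SE 0.08, adjusted p = 1.67e-06). GAR1 was at 11.5, 12.6 and 14.3 CPM in vehicle libraries A, B and C and at 10.8, 6.86 and 8.41 CPM in panobinostat libraries A, B and C, a log2 fold change of -0.57 (SE 0.16, adjusted p = 0.00512). The call of GAR1 was lost with limma on log2(FPKM + 1) without a filter (adjusted p = 0.0728). NHP2 was at 89.6, 93.3 and 114 CPM in vehicle libraries A, B and C and at 60.0, 72.7 and 89.6 CPM in panobinostat libraries A, B and C, a log2 fold change of -0.42 (SE 0.12, adjusted p = 0.00861). Panobinostat library C of NHP2 reached the lowest vehicle library, and without vehicle library C the call was lost (log2 fold change -0.31, adjusted p = 0.0557). The call of NHP2 was also lost with upper quartile scaling (adjusted p = 0.0607) and in all 3 limma fits on FPKM. NOLC1, a chaperone of both kinds of particle, had means of 412 and 366 CPM (log2 fold change -0.17, adjusted p = 0.0807), and passed, among the alternatives run, only without panobinostat library A (log2 fold change -0.27, adjusted p = 0.00299) or with no filter on low counts (adjusted p = 0.0443).

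The factors of the small subunit held the largest falls. Of the 17 genes 16 fell, RRP12 did not pass, and the median log2 fold change was -0.60. UTP20, a large scaffold protein of the small subunit processome (ENSG00000120800, chr12:101280109-101386616, plus strand), whose E-box is printed first above, was at 143, 169 and 172 CPM in vehicle libraries A, B and C and at 59.3, 58.8 and 58.6 CPM in panobinostat libraries A, B and C. It fell 2.75-fold (log2 fold change -1.46, SE 0.08, adjusted p = 1.43e-09). The panobinostat libraries differed from each other by less than 1 CPM. DDX52, an RNA helicase, was at 178, 196 and 181 CPM in vehicle libraries A, B and C and at 87.1, 91.4 and 95.9 CPM in panobinostat libraries A, B and C, a fall of 2.02-fold (log2 fold change -1.02, SE 0.07, adjusted p = 1.83e-08). NAT10, which acetylates cytidines of the small subunit RNA, was at 65.1, 62.3 and 67.1 CPM in vehicle libraries A, B and C and at 35.8, 34.5 and 33.1 CPM in panobinostat libraries A, B and C, a fall of 1.88-fold (log2 fold change -0.91, SE 0.08, adjusted p = 1.15e-07). In each of these 3 genes the lowest vehicle library was well above the highest panobinostat library.

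The other small subunit genes that fell spanned a log2 fold change of -0.80 to -0.33. UTP14A, which activates a helicase of the processome, fell from 98.0 ± 2.14 to 56.3 ± 1.79 CPM (SD, n = 3), and RRP9, the protein that marks the U3 snoRNP, from 43.2 ± 1.76 to 25.0 ± 3.04 CPM. The members of the subcomplex that binds the nascent precursor first fell by 0.77 (UTP4), 0.60 (UTP15), 0.49 (WDR75), 0.48 (HEATR1) and 0.39 (WDR43) on the log2 scale. NOP14 and its partner NOC4L fell by 0.68 and 0.59, and UTP18, of another processome subcomplex, fell by 0.39. The call of UTP18 was lost in all 3 limma fits on FPKM (lowest adjusted p = 0.0596). The helicase DDX10 fell by 0.33, and its call was lost with upper quartile scaling (adjusted p = 0.0678) and in all 3 limma fits on FPKM. The late factors NOB1, the nuclease that makes the final cut at the end of the 18S RNA, and BYSL fell by 0.69 and 0.45. RRP12, an export factor, had means of 49.9 and 53.8 CPM (log2 fold change 0.11, adjusted p = 0.297), and passed as higher with library size alone (log2 fold change 0.22, adjusted p = 0.0459) and with upper quartile scaling (log2 fold change 0.25, adjusted p = 0.0247).

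Of the 17 factors of the large subunit 15 fell (88.2%, against 42% of genes in the 52 genes' range of level), with a median log2 fold change of -0.52. DDX56, an RNA helicase, was at 158, 136 and 144 CPM in vehicle libraries A, B and C and at 72.4, 75.1 and 80.6 CPM in panobinostat libraries A, B and C, a fall of 1.92-fold (log2 fold change -0.94, SE 0.08, adjusted p = 8.37e-08). MRTO4, which holds the place of the stalk protein during assembly, was at 98.0, 112 and 110.1 CPM in vehicle libraries A, B and C and at 47.7, 59.4 and 65.3 CPM in panobinostat libraries A, B and C, a fall of 1.85-fold (log2 fold change -0.89, SE 0.10, adjusted p = 2.29e-06). PPAN was at 13.9, 9.60 and 11.7 CPM in vehicle libraries A, B and C and at 5.00, 7.33 and 6.86 CPM in panobinostat libraries A, B and C, a fall of 1.81-fold (log2 fold change -0.86, SE 0.17, adjusted p = 0.000408). PPAN had the lowest counts of the 52 genes and the largest SE, and P2RY11, which overlaps it on the same strand, fell by 0.49 (SE 0.15), so reads of both cannot be fully told apart.

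PES1, BOP1 and WDR12 form the PeBoW complex, which is needed to mature the large subunit RNAs. PES1 (ENSG00000100029, chr22:30576625-30607083, minus strand) was at 279, 255 and 266 CPM in vehicle libraries A, B and C and at 150.4, 149.5 and 155 CPM in panobinostat libraries A, B and C, a fall of 1.76-fold (log2 fold change -0.81, SE 0.07, adjusted p = 1.12e-07). BOP1 was at 194, 167 and 196 CPM in vehicle libraries A, B and C and at 121, 136 and 132 CPM in panobinostat libraries A, B and C, a log2 fold change of -0.52 (SE 0.08, adjusted p = 4.87e-05). WDR12 fell least, by 0.26 (SE 0.07, adjusted p = 0.00334). The WDR12 call was lost with library size alone (adjusted p = 0.069) and with upper quartile scaling (adjusted p = 0.131). It was also lost with limma on log2(FPKM + 1) at a filter of 1 FPKM (adjusted p = 0.0505). All 3 genes of the complex fell, by unequal fitted amounts whose difference was not tested.

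Of the remaining large subunit factors, GRWD1, a chaperone of a ribosomal protein, fell by 0.62 on the log2 scale, NOP16 by 0.55, URB2 by 0.54 and RRP1B by 0.54. NOC3L, the helicase DDX18, the GTPase GNL3 (nucleostemin) and NIP7 fell by 0.50, 0.48, 0.43 and 0.40. NOP2, a methyltransferase of the large subunit RNA, fell by 0.30, a call lost with library size alone (adjusted p = 0.0566). NOC2L, the partner of NOC3L, had a log2 fold change of -0.15 (adjusted p = 0.0824). RRS1, which acts with the 5S particle, had means of 23.2 and 22.6 CPM (log2 fold change -0.04, adjusted p = 0.732), and the sign was positive with library size alone (0.07), with upper quartile scaling (0.10) and without panobinostat library B (0.03).

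The abundant nucleolar RNA-binding proteins differed from each other. NCL, nucleolin (ENSG00000115053, chr2:231453531-231483641, minus strand), was at 947, 1156 and 1212 CPM in vehicle libraries A, B and C and at 673, 489.8 and 602 CPM in panobinostat libraries A, B and C. It fell 1.88-fold (log2 fold change -0.91, SE 0.11, adjusted p = 5.32e-06), and the arms were apart although libraries within an arm spread more than for most of the 52 genes. NPM1, nucleophosmin, the scaffold of the outer nucleolus (ENSG00000181163, chr5:171387116-171411137, plus strand), was at 533, 912 and 830.3 CPM in vehicle libraries A, B and C and at 695, 734 and 769 CPM in panobinostat libraries A, B and C. Vehicle library A lay below all others, the arms overlapped, and the difference did not pass (log2 fold change -0.05, SE 0.14, adjusted p = 0.767). Without vehicle library A the fall of NPM1 passed (log2 fold change -0.26, adjusted p = 0.00747), and without vehicle library B or C its sign was positive (0.10 and 0.01), as it was with library size alone (0.06) and upper quartile scaling (0.09). The data thus give no stable direction for NPM1.

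LYAR, a zinc finger protein of the nucleolus, was at 23.2, 27.0 and 28.5 CPM in vehicle libraries A, B and C and at 16.1, 15.4 and 15.1 CPM in panobinostat libraries A, B and C, a fall of 1.70-fold (log2 fold change -0.76, SE 0.10, adjusted p = 1.35e-05). PA2G4, which binds ribosomal precursors, was at 269, 267 and 283 CPM in vehicle libraries A, B and C and at 195, 185 and 189 CPM in panobinostat libraries A, B and C, a fall of 1.44-fold (log2 fold change -0.53, SE 0.07, adjusted p = 8.21e-06). DDX21, a helicase that acts on ribosomal RNA and at transcribed genes, had means of 597 and 548 CPM (log2 fold change -0.12, adjusted p = 0.2). It passed as lower without panobinostat library A (log2 fold change -0.19, adjusted p = 0.0433), and its sign was positive with upper quartile scaling (0.02).

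On the FPKM scale, which divides by gene length and so allows levels of genes to be compared, the 52 genes ran from 4.37 FPKM (PPAN) to 190 FPKM (NPM1) in vehicle. All 52 lay above the median of the genes tested, 4.16 FPKM. The most abundant in vehicle were NPM1 (190 FPKM), FBL (158 FPKM), NCL (153 FPKM) and DDX21 (114 FPKM), and with panobinostat FBL (204 FPKM), NPM1 (199 FPKM) and DDX21 (113 FPKM), with NCL at 88.1 FPKM. The SDs of NPM1 and FBL were 48.6 and 4.56 FPKM in vehicle and 8.41 and 12.3 FPKM with panobinostat, so their order is within the spread in both arms. The median level of the 52 genes was 22.3 FPKM in vehicle and 15.4 FPKM with panobinostat. As a description over 52 genes that share the same 6 libraries, levels in both arms had a Spearman rho of 0.97, and log2 fold change and vehicle level one of 0.11. FPKM is scaled by library size alone, and on this scale NPM1, RRP12 and RRS1 stand slightly above the line of equal levels in the plot of both arms.

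**Figure D3:**
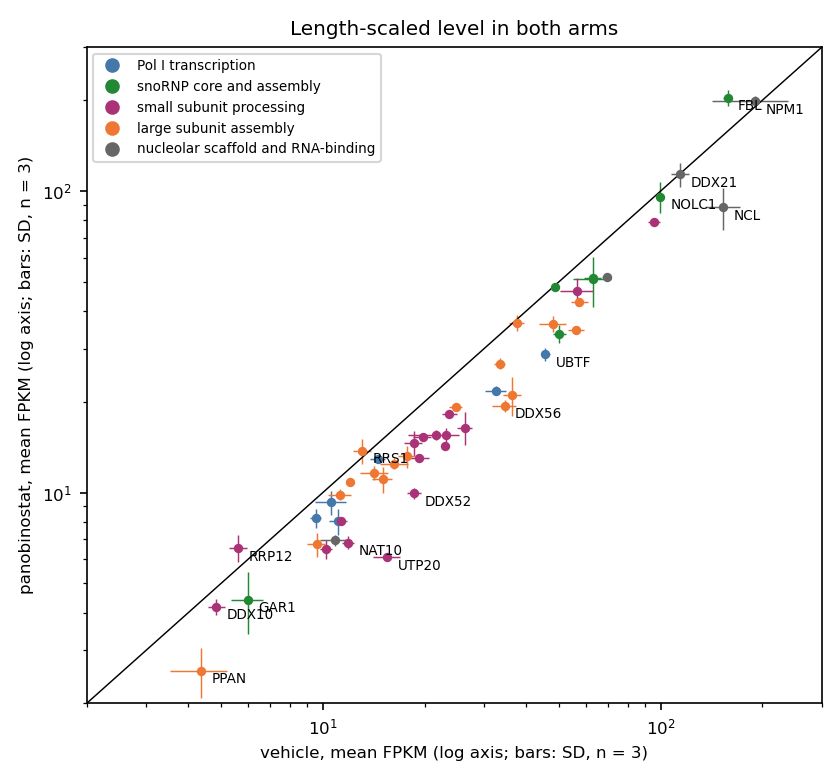
Mean level in FPKM with vehicle (horizontal, log axis) and with panobinostat (vertical, log axis) of the 52 genes, with SDs (n = 3) and coloured by role, against the line of equal levels. Most points lie below the line, UTP20 (15.5 and 6.10 FPKM) lies farthest below, and FBL (158 and 204 FPKM) lies above.

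The rest of the pathway was described with 137 further genes in 5 lists. Of these 91 fell and 12 rose, with a median log2 fold change of -0.38. Of 42 other small subunit factors 31 fell and 1 rose (median -0.41), and those that moved most were DHX37, the helicase that acts with UTP14A (-1.07, SE 0.08), MPHOSPH10 (-0.91, SE 0.09), PWP2 (-0.81, SE 0.15) and NGDN (-0.81, SE 0.08). Of 50 other large subunit factors 35 fell and 3 rose (median -0.41), led by CCDC86 (-1.13, SE 0.16), the helicase DDX51 (-0.92, SE 0.08), NOL8 (-0.91, SE 0.09) and LAS1L, which cuts the second internal spacer (-0.89, SE 0.08). The risers in these lists, named after their values were seen, were UTP23 (0.35), SBDS (0.33), NPM3 (0.30) and RSL24D1 (0.25). Without panobinostat library B 1 large subunit factor rose.

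Genes of the exosome and of the nucleases that trim the precursor fell in 15 of 21 cases (71.4%) and rose in 3 (14.3%). Their median was -0.49, and of all genes tested 31.5% fell and 33.7% rose. The largest changes were in MPHOSPH6, an exosome cofactor (-1.21, SE 0.11), and in the exosome subunits EXOSC5 (-1.14, SE 0.11), EXOSC10 (-0.73, SE 0.09) and EXOSC7 (-0.70, SE 0.16). The risers, named after their values were seen, were ISG20L2 (0.41), C1D (0.34) and ERI1 (0.20), and without vehicle library C 1 gene of this list rose.

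In the other lists falls and rises were nearer in number. Of 13 other polymerase I factors 7 fell (53.8%) and 2 rose (15.4%), against 31.5% and 33.7% of all genes tested (median -0.25). MYBBP1A, a nucleolar binding partner of several transcription factors, fell from 112 ± 17.6 to 56.7 ± 5.47 CPM (SD, n = 3; log2 fold change -0.98, SE 0.11). TTF1, the termination factor (-0.70, SE 0.11), POLR1G (-0.58, SE 0.10) and TAF1A of the promoter complex (-0.55, SE 0.13) also fell. POLR1D and POLR1E, chosen after their values were seen, rose by 0.53 (SE 0.08) and 0.54 (SE 0.08), the opposite direction to the 6 polymerase I genes above. With upper quartile scaling, and with limma on FPKM, 4 of the 13 fell. Of 11 other snoRNP assembly factors 3 fell and 3 rose (27.3% each, median -0.12), near the 31.5% and 33.7% of all genes tested. They included PIH1D1 (0.59, SE 0.08) and ZNHIT3 (-0.59, SE 0.10) of the box C/D assembly machinery. SHQ1, the chaperone of dyskerin (0.48, SE 0.08), and NUFIP1 (-0.37, SE 0.09) were also among them.

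Cytosolic ribosomal proteins, the partners of the RNA in the finished subunit, ran the other way. Of 45 genes 40 rose (88.9%) and 1 fell (2.22%), with a median log2 fold change of 0.52. Of all genes tested 33.7% rose and 31.5% fell. Of 6 tested paralogs of the nucleolar factors 5 fell (83.3%) and NPM3 rose. This list is not separate from those above, where RRP1 and NPM3 were already counted. FBLL1, a paralog of fibrillarin, fell by 0.50 (SE 0.08), in the direction opposite to FBL, and RRP1, the paralog of RRP1B, fell by 0.82 (SE 0.08).

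**Figure D4:**
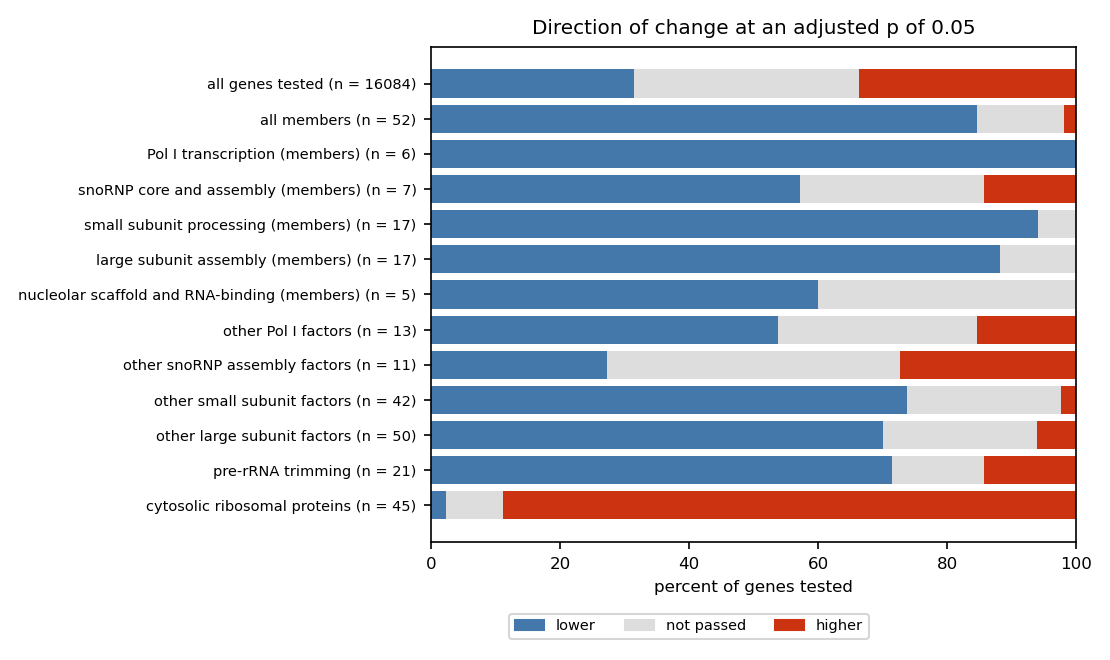
Percent of genes tested (horizontal axis) that were lower (blue), not passed (light grey) or higher (red) at an adjusted p of 0.05, for all 16084 genes tested, the 52 genes, their 5 role groups and the further lists, with the number of genes n. Blue fills 84.6% for the 52 genes and 31.5% for all genes, and red fills 88.9% for cytosolic ribosomal proteins.

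Several of these genes share their locus or their sequence with other rows. The introns of 6 of them (NOP56, NOP58, WDR43, GNL3, PPAN and NCL) hold 13 snoRNA genes with a row, none of which passed the filter on low counts. All 13 had counts, at most 12 in a library, and no difference between the arms was tested. Pseudogenes of 9 of the genes had 40 rows, 27 of them of NPM1. NPM1P27 had up to 717 counts in a library and did not differ between arms (log2 fold change -0.01, adjusted p = 0.95), and NCLP1 fell with -1.06 (SE 0.33, adjusted p = 0.0106). Reads of a gene and of a near-identical pseudogene can be exchanged, so the values of NPM1 and NCL carry that uncertainty.

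Reads were counted by strand, which allows the 25 rows on the opposite strand of 17 of the genes to be read separately. Of the 21 tested 6 fell, 7 rose and 8 did not pass, close to the 31.5% and 33.7% of all genes tested that fell and rose. The antisense gene NOP14-AS1 rose from 2.98 ± 0.754 to 5.53 ± 0.108 CPM (SD, n = 3; log2 fold change 0.91, SE 0.19, adjusted p = 0.000728), while NOP14 fell. Opposite PES1, which fell, the gene ENSG00000223831 had 1 count over the vehicle libraries and 99 over the panobinostat libraries, and TCN2 rose by 1.15 (SE 0.12). SAMD11 opposite NOC2L rose by 0.68 (SE 0.11) and ANKRA2 opposite UTP15 by 0.55 (SE 0.11), whereas PBRM1 opposite GNL3 fell by 0.70 (SE 0.08). These pairs were named after their values were seen, and they hold both like and unlike directions.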

How the data were processed

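RNA sequencing covered 6 libraries, 3 an arm, grouped by the labels. Per the file headers, the authors used featureCounts 1.5.0-p3 (version 1.5.1 in the submitters' processing notes) for the deposited counts, by strand (option 2) on Ensembl 84 genes. Those notes also name Novoalign 2.8, Subread and hg38. The deposited FPKM values are the authors' own, and each of 53265 values with 100 counts or more was within 1% of proportional to the count, so both units carry the same measurement.

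These counts went into edgeR 4.0.16 (R 4.3.3) with filterByExpr (minimum count 10, minimum total 15), TMM and a quasi-likelihood test between the arms, panobinostat minus vehicle, with no further term. Benjamini-Hochberg adjustment ran over all 16084 genes tested, and an adjusted p of 0.05 or less was called a change. SE is the size of the log2 fold change divided by the square root of F. Steps were tested on simulated data in which few genes changed. That test cannot judge the scaling in these data, where most genes were called changed. Libraries within an arm had a Spearman rho of 0.993 to 0.997 over genes and differed by more than sampling noise (chi-square per gene of 2.65 or more).

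The genes, role groups and lists were chosen with earlier results of these data known, so no p was adjusted over a list alone. All 52 genes are named. Values per library were printed for a fixed set (NCL, NPM1, FBL, NOP56, NOP58, DKC1, UBTF, POLR1A, UTP20, PES1 and BOP1), for the 3 largest changes past the threshold in each role group and for risers. From each further list came up to 4 genes that passed and had a mean of at least 1 CPM, by size of change. Coordinates are GRCh38 spans of GENCODE 29, which held 22459 of 22718 rows. Promoter windows are RefSeq's. Protein sequences were not used here. Alternatives were DESeq2 1.42.0, other scalings, filters and thresholds, a letter block, each library left out, and limma 3.58.1 on log2 of FPKM.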

Additional observations from a re-analysis of the deposited data

How the results depend on the processing

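Of the 45 genes that passed, 36 kept their call and direction under all 17 alternatives, and none of the 9 others changed direction (POLR1A, POLR1B, TCOF1, GAR1, NHP2, UTP18, DDX10, WDR12 and NOP2 lost their call in at least 1, most often with library size alone, upper quartile scaling or limma on FPKM). The number of the 52 genes that fell ran from 37 (limma on log2(FPKM + 1), no filter) to 46 (without panobinostat library A). With library size alone and with upper quartile scaling 2 rose, and 1 small subunit gene, RRP12, in place of 0. Limma on FPKM with no filter called 2 snoRNP genes lower, and 4 other polymerase I factors fell with upper quartile scaling and in each of the 3 limma fits. At an adjusted p of 0.01, 1 of the other large subunit factors and 1 of the trimming genes rose. With a library left out, these ranged from 1 to 3 and from 1 to 3.

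The median log2 fold change minus that of all genes tested was -0.54 for the 52 genes, -0.63 with no filter, and -0.43, -0.45 and -0.46 with limma on log2(FPKM + 1), log2(FPKM + 0.1) and log2(FPKM + 1) without filter. For polymerase I genes it was -0.46, then -0.56 with no filter, -0.42 with a filter at 1 CPM, -0.34, -0.38 and -0.38 in the limma fits, and -0.51 to -0.45 with a library left out. For snoRNP genes it was -0.42, then -0.51 with no filter, -0.32 with limma on log2(FPKM + 1) and -0.47 to -0.30 with a library left out. For small subunit genes it was -0.62, then -0.71 with no filter, -0.58 with a filter at 1 CPM, -0.48, -0.53 and -0.52 with limma, and -0.68 to -0.60 with a library left out. For large subunit genes it was -0.53, then -0.63 with no filter and -0.44 and -0.45 with limma at a filter of 1 FPKM. The difference between arms in the share taken by the 52 genes was -0.178 percentage points of counts, -0.133 without NCL and -0.088 as a share of summed FPKM. Signs turned in 4 genes that did not pass. With upper quartile scaling NOP56 had a log2 fold change of 0.0132, DDX21 of 0.0152, RRS1 of 0.0965 and NPM1 of 0.0884. With library size alone RRS1 had 0.0708 and NPM1 0.0638. In the limma fits on log2(FPKM + 1), on log2(FPKM + 0.1) and without filter RRS1 had 0.0668, 0.0711 and 0.0668, and NPM1 0.0969, 0.0975 and 0.0969. With a library left out RRS1 ranged from -0.104 to 0.0313 and NPM1 from -0.258 to 0.0970. Beyond scaling and left-out libraries, the cause was not tested.

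The letters A to C were also tried as a replicate block. Same-lettered libraries deviated from their arm's mean with a correlation over genes of 0.08 (A), -0.02 (B) and 0.10 (C), not all above 0.1, and the B libraries did not correlate best with their own letter, so the letters were not taken to pair the libraries. With the block 44 of the 52 genes fell and 1 rose, and no call on them changed. PPAN and GAR1, with the lowest counts, had the largest SEs.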
